A study of Mus musculus with 4 samples.

Results

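The genes described here are 9 receptors of the tumour necrosis factor (TNF) receptor superfamily, Tnfrsf18, Tnfrsf4, Tnfrsf9, Tnfrsf1a, Tnfrsf1b, Tnfrsf25, Tnfrsf14, Cd27 and Fas. They were chosen by gene symbol, with earlier results of these data known, and all 9 were found among 55536 tabulated genes. They were measured by polyA RNA-seq in inflammation-experienced regulatory T cells (Treg), CD4 T cells that restrain immune responses. The single biosample came from a male mouse of 6 months of the strain Foxp3CreERT2 x Rosa26YFP, in which the Foxp3 gene drives an inducible Cre recombinase and Rosa26 holds a fluorescent reporter. The labels give 1 group of 4 libraries, numbered as technical replicates 1 to 4 of a single biological replicate, with no control cells, so no condition could be compared. They name a bone marrow hematopoietic cell as the origin and do not describe the inflammation or any induction of the Cre. Every SD below (n = 4) therefore measures the spread between libraries, not between mice.

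These receptors are membrane proteins with cysteine-rich repeats outside the cell that bind trimeric ligands of the TNF superfamily. Inside the cell, the class with Tnfrsf1a, Tnfrsf25 and Fas carries a death domain that recruits the adaptors TRADD or FADD and can start cell death. The other class binds TRAF adaptors directly and feeds the NF-kappaB and MAP kinase pathways. In Treg the products of Tnfrsf18 (GITR), Tnfrsf4 (OX40), Tnfrsf9 (CD137) and Tnfrsf1b (TNFR2) are well-known surface proteins, and signals through them act on Treg growth, survival and function.

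The main quantification held 9284432, 9341328, 9325636 and 6648385 expected counts on genes in libraries 1 to 4, so library 4 was the shallowest. All 5 Treg markers (Foxp3, Il2ra, Ctla4, Ikzf2 and Izumo1r) stood at 10 TPM or more in every library. TPM (transcripts as a share of a fixed total, after division by transcript length) allows levels to be compared between genes. The 5 Treg markers summed to 1797 to 2215 TPM and the 5 T cell markers (Cd3d, Cd3e, Cd3g, Trac and Cd4) to 6518 to 7114 TPM. Izumo1r, at 1192 ± 242 TPM, held most of the Treg sum, whereas Foxp3 had 20.3 to 36.4 TPM. Genes of other cells were also read. The 8 B cell markers summed to between 94.6 TPM in library 3 and 203 TPM in library 1, and 6 of the 8 were at 1 TPM or more in every library. Cd79b, the highest of them at 57.6 to 89.3 TPM, was above Foxp3 in every library. Each of the others averaged below Foxp3. The 6 myeloid markers summed to 5.36 to 26.7 TPM, the 4 NK markers to 0.79 to 4.28 TPM and the 2 CD8 T cell markers to 10.1 to 17.3 TPM. Library 1 stood apart by 965 TPM over 4 erythroid genes, against 3.55 to 36.3 TPM in the others, with Hba-a1 at 0 in library 2. The part of these cells in the receptors' levels was not tested.

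All 9 receptor transcripts were present at 10 TPM or more in every library, and 3 of them, Tnfrsf4, Tnfrsf18 and Cd27, held 76.3 ± 1.87% of the 2007 ± 148 TPM that the genes summed to. The median receptor stood at 101 ± 6.12 TPM. The median was 18.1 TPM over the 10565 protein-coding genes with a mean of at least 1 TPM. Since the genes were chosen with earlier results known, this gap is no test of the superfamily's level. The 19 other receptors of the superfamily had a median of 2.08 ± 0.14 TPM. The 9 receptors described here fell into an upper tier of 3, a middle tier of 5 and Tnfrsf1a alone at the bottom. In bulk RNA a low level cannot be told apart between few cells that use a gene and little RNA in each cell, and here that holds for each receptor.

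Among the receptors that bind TRAF adaptors, Tnfrsf4 had 527, 603, 614 and 462 TPM in libraries 1 to 4. Its mean was rank 205 of 22028 protein-coding genes. Tnfrsf18 had 450, 489, 590 and 517 TPM. These genes, both for costimulatory receptors that activated T cells display, exchanged places between libraries: Tnfrsf4 was above Tnfrsf18 in libraries 1 to 3 and below it in library 4. The log2 ratio of Tnfrsf4 to Tnfrsf18 (each as TPM plus a pseudocount of 0.1) was 0.23, 0.30, 0.06 and -0.16, with a mean of 0.11 ± 0.21 that lay within its own spread. Cd27, a costimulatory receptor for the ligand CD70, had 493, 507, 471 and 407 TPM. It was lowest in library 4, as was Tnfrsf4, whereas Tnfrsf18 was lowest in library 1. Cd27 overlapped both of these genes in its range.

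The other receptors of this class were several-fold lower. Tnfrsf9, whose product CD137 is a costimulatory receptor induced by T cell activation, had 70.8, 93.6, 118 and 71.5 TPM. Library 3 was highest for it, and libraries 1 and 4 were nearly level. Tnfrsf18 exceeded Tnfrsf9 in all 4 libraries, by 2.56 ± 0.25 on the log2 scale. Tnfrsf14, which encodes HVEM, a receptor that binds LIGHT and also the inhibitory receptor BTLA, had 75.8, 51.9, 88.6 and 94.7 TPM. It was lowest in library 2 and below Cd27 in every library, with a log2 ratio of -2.62 ± 0.51. Tnfrsf1b, which encodes TNFR2, the TNF receptor without a death domain, had 103, 57.5, 74.5 and 59.9 TPM, with library 1 clear of the other libraries.

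Among the death-domain receptors, Tnfrsf25 (DR3, the receptor for TL1A) had 134, 105, 101 and 88.1 TPM. Fas, the receptor for Fas ligand that triggers apoptosis of activated lymphocytes, had 96.1, 99.1, 109 and 102 TPM, the narrowest range of the 9 genes for its level. Tnfrsf1a, which encodes TNFR1, had 31.5, 26.1, 21.6 and 26.3 TPM. No library of Tnfrsf1a reached the lowest library of any other receptor here. Fas exceeded Tnfrsf1a by 1.95 ± 0.30 and Tnfrsf25 exceeded it by 2.01 ± 0.20 on the log2 scale. Of the TNF receptors themselves, the TRAF-binding Tnfrsf1b exceeded the death-domain Tnfrsf1a by 1.45 ± 0.34 on the log2 scale (1.70, 1.14, 1.78 and 1.19 by library), a mean fold of 2.74. With 4 libraries an exact sign-flip permutation test cannot give a two-sided p below 0.125, so no test was applied to these ratios.

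**Figure D1:**
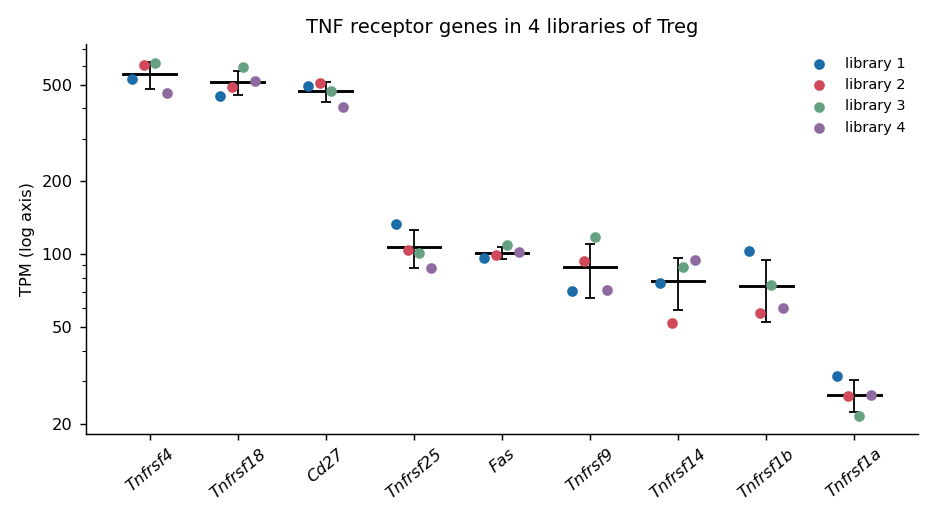
TPM of each receptor gene (log axis) in libraries 1 to 4 (points), with the mean (line) and SD (bar), n = 4. Tnfrsf4, Tnfrsf18 and Cd27 lie between 407 and 614 TPM, 5 genes lie between 51.9 and 134 TPM, and Tnfrsf1a lies at or below 31.5 TPM.

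Ordered by mean TPM, the genes ran Tnfrsf4, Tnfrsf18, Cd27, Tnfrsf25, Fas, Tnfrsf9, Tnfrsf14, Tnfrsf1b and Tnfrsf1a. Neighbours were called apart where the log2 ratio had 1 sign in all 4 libraries and a mean above 2 SD. Only Cd27 over Tnfrsf25, at 2.15 ± 0.18 on the log2 scale, and Tnfrsf1b over Tnfrsf1a met this. The other 6 neighbouring pairs did not differ beyond their spread. Over all 36 pairs of receptors, 24 were apart. Tnfrsf25 over Tnfrsf1b, both in the middle tier, was among them at 0.56 ± 0.22 on the log2 scale.

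Most of these genes lie on chromosomes 4 and 6 of the mm10 genome, but few lie near each other. On chromosome 4 only Tnfrsf4 and Tnfrsf18 are close. The next nearest of the genes there, Tnfrsf14 and Tnfrsf4, are 1085279 bp apart with 40 protein-coding genes between them. Chromosome 4 holds Tnfrsf1b (ENSMUSG00000028599.10, chr4:145213463-145246870, minus strand), Tnfrsf9 (ENSMUSG00000028965.13, chr4:150914562-150946102, plus strand), Tnfrsf25 (ENSMUSG00000024793.14, chr4:152115934-152120119, plus strand) and Tnfrsf14 (ENSMUSG00000042333.16, chr4:154921933-154928563, minus strand). It also holds Tnfrsf4 (ENSMUSG00000029075.6, chr4:156013843-156016612, plus strand) and Tnfrsf18 (ENSMUSG00000041954.18, chr4:156026164-156028895, plus strand). Chromosome 6 holds Cd27 (ENSMUSG00000030336.14, chr6:125232622-125237010, minus strand) and Tnfrsf1a (ENSMUSG00000030341.17, chr6:125349362-125362484, plus strand). Fas (ENSMUSG00000024778.13, chr19:34290666-34327772, plus strand) stands alone on chromosome 19.

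Tnfrsf4 and Tnfrsf18, the most abundant pair, are separated by 9551 bp with 0 protein-coding genes between them and run in the same direction. Nearness did not go with a shared level elsewhere. Tnfrsf1b, at 73.7 ± 20.9 TPM, lies 20266 bp from Tnfrsf8 (CD30, another T cell receptor of the family), which stood at 9.62 ± 2.20 TPM. Between Cd27 and Tnfrsf1a lies Ltbr, the lymphotoxin beta receptor of stromal and myeloid cells, at 0.13 ± 0.17 TPM. In exonic sequence, Tnfrsf18 shares 414 bp with the antisense gene Gm16008 (10.6 TPM). The strand setting of the counting is not given in the sources used here, so reads of this stretch cannot be told apart by strand. Cd27 shares 129 exonic bp with Mir8113 on the same strand (4.98 TPM), and the reads of that stretch could be split between them.

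The 3 quantifications of the same libraries kept the upper tier and Tnfrsf1a at the bottom, and moved genes in between. The second was a transcript table with estimated counts and TPM on the same GENCODE M21 transcripts, and the third was whole-number gene counts on the older M4 annotation, here divided by the main table's effective lengths. Tnfrsf4 stood at 920 ± 111 and Tnfrsf18 at 860 ± 113 length-scaled units in the M4 counts, with Cd27 at 474 ± 41.7. There Tnfrsf18 was apart from Cd27, by 0.85 ± 0.27 on the log2 scale, which it was not in the main table. Fas was likewise apart from Tnfrsf9 only in the M4 counts, by 0.89 ± 0.22. The raw M4 count of Tnfrsf18 was 6073, 7348, 8806 and 5575 in libraries 1 to 4, against a main expected count of 3185, 3809, 4466 and 2774. That ratio of 1.95 ± 0.05 exceeded the ratio of 91.7% of the 10402 genes with a mean count of 10 or more in both tables, whose median was 1.19. The ratio of Tnfrsf14 was 2.09 ± 0.06 and that of Tnfrsf4 was 1.94 ± 0.08. At the other end, Tnfrsf1b had a ratio of 0.66 ± 0.05, above the ratio of 19.3% of those genes. Since the ratio of Tnfrsf1a was 1.40 ± 0.08, the excess of Tnfrsf1b over Tnfrsf1a shrank to 0.37 ± 0.31 on the log2 scale in the M4 counts and was no longer beyond its spread. The part of annotation, strand setting and read assignment in these gaps was not tested.

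The second transcript table, scaled to protein-coding genes as was the main table for this purpose, differed less. Tnfrsf14 stood at 116 ± 23.9 TPM there and 93.1 ± 23.5 TPM in the main table, whereas Tnfrsf1b stood at 67.0 ± 19.1 and 87.8 ± 23.7 TPM. In that table Tnfrsf1b exceeded Tnfrsf1a by 1.39 ± 0.35 on the log2 scale, close to the main value.

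**Figure D2:**
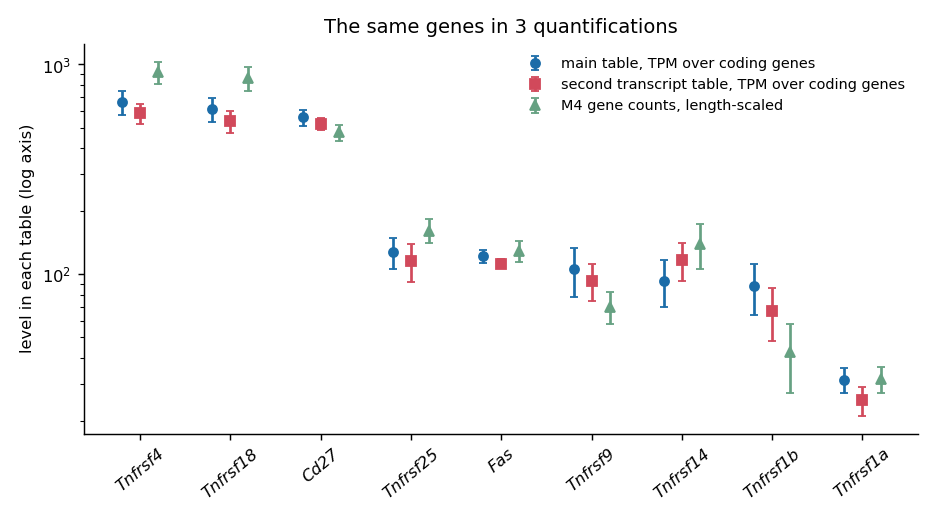
Mean level (log axis, SD bars, n = 4) of each receptor gene in the main table and the second transcript table, both as TPM over protein-coding genes, and in the M4 gene counts scaled by length. The M4 values are scaled to the main TPM over all genes, a total unlike that of the other series. Cd27, for example, has 474 M4 units, 469 main TPM over all genes and 560 over coding genes. The M4 values of Tnfrsf4 and Tnfrsf18 lie at 920 and 860, above both TPM values, and the M4 value of Tnfrsf1b lies at 42.4, below both.

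The receptors' share of counts differed between the libraries by more than counting error. A Poisson likelihood ratio test (edgeR, Benjamini-Hochberg adjustment over all tested genes) called 9 of 9 receptors at an adjusted p under 0.05, and it called 68.4% of the 13045 genes tested. Among the 4728 genes with at least the mean count of Tnfrsf1a (349), it called 89.4%, so the count of receptors was close to that of genes as deeply counted. The test measures spread between technical libraries only. Tnfrsf1b had the widest span, its highest library standing 1.67-fold above its lowest in its share of counts. Fas had the narrowest at 1.21-fold and an adjusted p of 0.0022. Fas was the 1 receptor of 9 not called in the second transcript table (edgeR adjusted p = 0.073), without library 1 (adjusted p = 0.21) or without library 3 (adjusted p = 0.064), where 62.4, 54.4 and 60.7% of genes were called. All 9 were called without library 2 or library 4, against 54.8 and 61.8% of genes. They were also all called with DESeq2 size factors, with no filter on low counts and in the M4 counts, against 68.3, 37.2 and 78.5% of genes. The shares beside these alternatives are over all genes tested, shallow ones included. A share among genes as deeply counted as the receptors was taken only in the main setting. The other spans were 1.30-fold for Tnfrsf18, 1.39-fold for Tnfrsf25, 1.40-fold for Cd27, 1.42-fold for Tnfrsf9, 1.45-fold for Tnfrsf4 and for Tnfrsf1a, and 1.58-fold for Tnfrsf14. The members' median span of 1.42-fold lay between that of all tested genes (1.50-fold) and that of genes of like or higher count (1.34-fold).

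The leading transcript held between 44.1% and 98.9% of a receptor's TPM, and its SD over libraries ran from 1.29 to 8.02 percentage points. The annotation lists 46 transcripts of the 9 genes, 29 of them protein-coding and 21 of those with a complete reading frame. A stretch of 19 codons with a mean Kyte-Doolittle hydropathy of at least 1.6, past the first 30 codons, was taken as a candidate membrane-spanning window. It was found in 16 of the complete frames and not in 5, which belong to Tnfrsf9, Fas and Tnfrsf18. A frame without the window is a description of its letters and not a measured soluble protein.

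Tnfrsf9 had the largest such share. Its exon of 135 bp at chr4:150935422-150935556 (mm10, plus strand) holds the whole window, and Tnfrsf9-202 and Tnfrsf9-204 skip it. The spliced stretches are shown because they are what separates the frame of 256 codons in Tnfrsf9-205 from that of 211 codons in Tnfrsf9-204. They are given 5′ to 3′ from GENCODE M21 between chr4:150934397 and chr4:150944787, with 15 bases of each flanking exon and the 57 bases of the window in capitals.
Tnfrsf9-205: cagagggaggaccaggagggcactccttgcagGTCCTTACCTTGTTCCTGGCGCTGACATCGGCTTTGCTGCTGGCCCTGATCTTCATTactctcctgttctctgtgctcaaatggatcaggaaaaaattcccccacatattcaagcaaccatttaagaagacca
Tnfrsf9-204: cagagggaggaccagcatttaagaagacca

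Of the TPM of Tnfrsf9 transcripts that either hold or skip this exon, those that skip it held 43.2, 47.9, 41.8 and 46.5% in libraries 1 to 4, a mean of 44.9 ± 2.81%. The 4 libraries stayed within a narrow band although the gene's level ranged from 70.8 to 118 TPM. The transcripts that hold the exon include Tnfrsf9-206, with an incomplete frame, at 3.51, 0, 23.7 and 8.6% of the gene's TPM. By expected counts the share that skips the exon was 41.2, 43.6, 47.5 and 46.7%. Library 3, lowest by TPM, was thus highest by counts, so the order of the libraries was not settled. In the second transcript table the share was 30.8 ± 1.35%, below every library of the main table. Tnfrsf9-205, with the window, held 53.3, 44.6, 33.7 and 45.0% of the gene's TPM, and Tnfrsf9-204, without it, held 37.9, 33.2, 36.8 and 42.4%. Tnfrsf9-205 led in 3 of 4 libraries and Tnfrsf9-204 led in library 3. The table also gives a posterior count with its assignment error. For Tnfrsf9-205 it was 402 ± 87.1, 533 ± 82.8, 513 ± 83.5 and 265 ± 62.8 in libraries 1 to 4, and for Tnfrsf9-204 it was 353 ± 42.5, 463 ± 47.4, 603 ± 53.9 and 296 ± 37.5. By these counts Tnfrsf9-204 was the higher in libraries 3 and 4, and the ranges of 1 SD overlapped in every library, so which transcript led was not settled. Other transcripts of the same frames had posterior counts too. With the window, Tnfrsf9-201 had 62.2 to 91.0 (errors of 49.5 to 77.5) and Tnfrsf9-203 had 7.32 to 16.4. Without it, Tnfrsf9-202 had 12.8 to 38.4. The single transcripts therefore do not give the balance between frames with and without the window.

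Tnfrsf18 was the gene whose leading transcript by mean share changed between the transcript tables. Tnfrsf18-202 and Tnfrsf18-203 differ in a last intron of 71 bp at chr4:156028424-156028494 (mm10, plus strand), which Tnfrsf18-203 keeps in its coding sequence. Both transcripts hold the window. The frame of Tnfrsf18-203 has 314 codons with 143 after the window, against 228 codons with 57 after it in Tnfrsf18-202. The stretch is shown, from GENCODE M21 at chr4:156028409-156028509, with 15 bases on each side and the retained intron in capitals.
Tnfrsf18-203: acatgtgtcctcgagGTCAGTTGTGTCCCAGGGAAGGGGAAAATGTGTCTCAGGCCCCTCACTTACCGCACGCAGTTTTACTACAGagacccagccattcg
Tnfrsf18-202: acatgtgtcctcgagagacccagccattcg

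The intron starts with GT and ends with AG, and its GC content was 53.5%. Of the Tnfrsf18 transcripts that cross it, Tnfrsf18-203 held 14.9, 15.0, 14.1 and 12.2% of the TPM in the main table, a mean of 14.1 ± 1.29%. In the second table it held 50.8, 47.1, 61.2 and 64.7%, a mean of 56.0 ± 8.36%. The tables did not overlap, and the difference between them was several times their spread over libraries. Beyond the intron, Tnfrsf18-203 starts 178 bp downstream of Tnfrsf18-202, so reads of the first exon also bear on the split. The posterior counts of Tnfrsf18-203 in the main table, 431 ± 43.6 in library 1 for example, carry an error much smaller than the gap. Which table is nearer to the RNA was not tested. Tnfrsf18-201, which lacks the exon with the window, held 1.76 ± 0.99% in the main table and 2.27 ± 0.46% in the second.

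**Figure D3:**
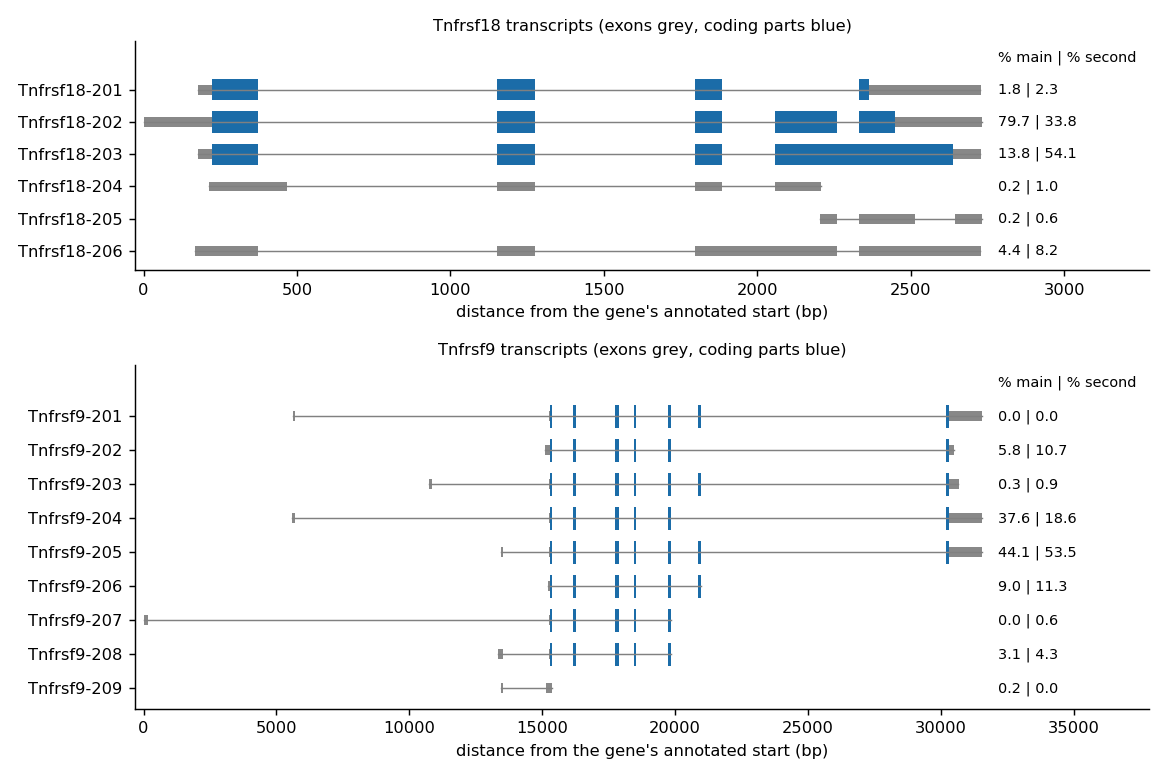
Exons (grey) and coding parts (blue) of the annotated Tnfrsf18 and Tnfrsf9 transcripts by distance from the gene's start in bp, with the mean percent of the gene's TPM in the main and the second table at the right. Tnfrsf18-202 has 79.7 and 33.8%, Tnfrsf18-203 has 13.8 and 54.1%, and Tnfrsf9-204, which lacks the exon before the last, has 37.6 and 18.6%.

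In the main table Fas was carried mostly by its full-length transcript. Fas-201, whose frame of 327 codons has the window and 141 codons after it, held 75.5, 70.8, 83.8 and 81.1% of the Fas TPM. In the second table it held 53.0, 47.0, 62.6 and 67.2%, lower in every library, and transcripts not annotated as protein-coding held 27.4 ± 6.34%. Fas-203, a form that skips the exon of 54 bp at chr19:34318783-34318836, had a low share. That exon holds 46 of the 57 bases of the window, and its skipping in human FAS is a textbook source of soluble receptor. The stretch is shown from GENCODE M21 between chr19:34318637 and chr19:34319324 (plus strand), spliced, with 15 bases of each flanking exon and the window in capitals.
Fas-201: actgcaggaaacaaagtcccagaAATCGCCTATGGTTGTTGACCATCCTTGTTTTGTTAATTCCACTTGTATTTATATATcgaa
Fas-203: actgcaggaaacaaatatttatatatcgaa

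Fas-203 was listed at 0% in libraries 1 and 3 and held 1.3 and 1.75% in libraries 2 and 4. Its posterior counts were 9.25 ± 9.45, 24.8 ± 15.9, 21.5 ± 25.3 and 18.7 ± 12.3 in libraries 1 to 4, so library 3 was not below library 4 by that estimate. Its mean share was 0.76 ± 0.90% in the main table and 0.49 ± 0.58% in the second, so both tables placed it below 1% on average. The other protein-coding form without a window, Fas-202, is a short form of 63 codons. It held 11.8, 13.9, 7.73 and 6.47% of the TPM in libraries 1 to 4, but only 3.14 ± 1.21% of the expected counts, with 13 to 38.9 counts in a library. Libraries 1 and 2 were both above libraries 3 and 4 for it. Fas-204, annotated for nonsense-mediated decay, has a complete frame of 123 codons with no window, and it held 5.26 ± 1.21% of the Fas TPM in the main table and 13.9 ± 3.77% in the second.

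The remaining receptors had no complete frame without the window among transcripts annotated as protein-coding, although Tnfrsf1b-202, annotated for nonsense-mediated decay, has such a frame of 55 codons and held 1.11 ± 1.29% of the Tnfrsf1b TPM. Tnfrsf1b-201 held 98.9 ± 1.29% and Tnfrsf1a-201 held 93.2 ± 4.96% of their gene's TPM. Tnfrsf4-201 held 82.5 ± 1.65%, and the rest of Tnfrsf4 lay in a pair of processed transcripts. Tnfrsf25 was shared between frames of 387 codons (Tnfrsf25-202, 44.1 ± 2.69%) and 411 codons (Tnfrsf25-201, 30.7 ± 2.52%), which hold 20 and 27 cysteine codons before the window. In the second table they were level, at 34.1 ± 3.14% for Tnfrsf25-202 and 33.9 ± 2.75% for Tnfrsf25-201, and Tnfrsf25-201 was the higher in libraries 1, 3 and 4. These frames thus differ in the part outside the cell, where the ligand binds. Tnfrsf14 was shared between Tnfrsf14-205 at 60.1 ± 6.08% and Tnfrsf14-201 at 27.5 ± 7.27%, whose frames of 276 and 275 codons differ after the window. In the second table Tnfrsf14-201 held only 10.6 ± 1.45%, below every library of the main table. Cd27-201 held 65.9 ± 1.58%, and the retained-intron form Cd27-206 held 20.9 ± 1.63%. In polyA RNA a retained-intron form may be read from unfinished transcripts as well as from finished ones, which cannot be told apart here.

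Frames differed in their length after the window. The leading death-domain frames of the main table had 223 codons in Tnfrsf1a, 197 in Tnfrsf25 and 141 in Fas. The leading frames of the TRAF-binding receptors had 57 or fewer in Tnfrsf18, Tnfrsf9, Cd27, Tnfrsf14 and Tnfrsf4, with 39 in Tnfrsf4. Length did not separate the classes, since Tnfrsf1b, without a death domain, had 190, more than Fas, and Tnfrsf18-203, which led Tnfrsf18 in the second table, had 143.

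**Figure D4:**
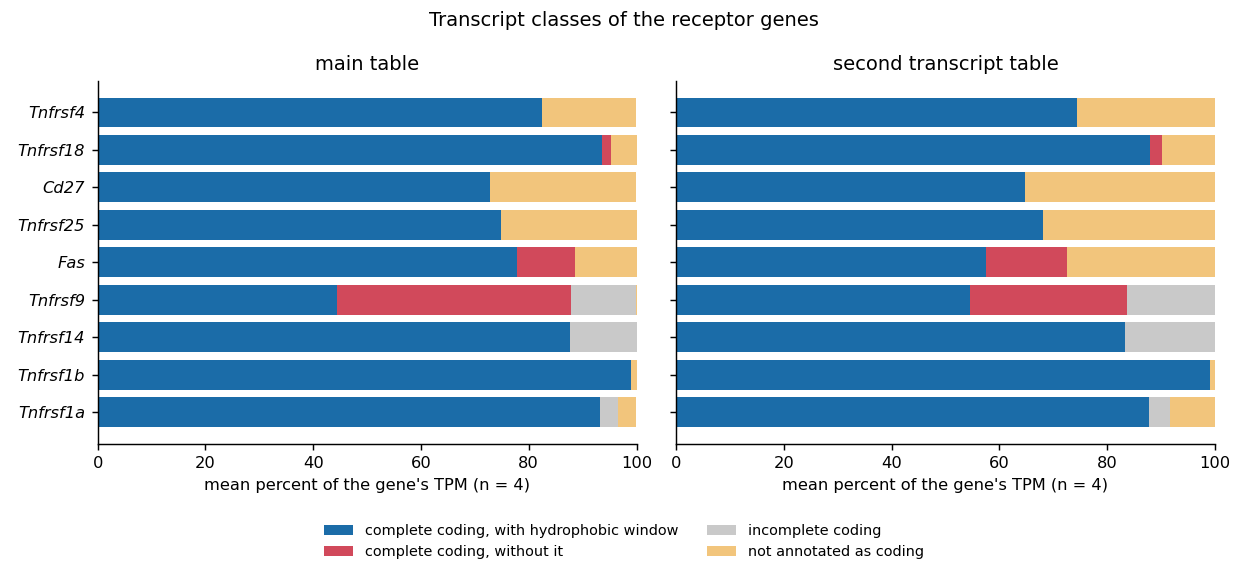
Mean percent of each gene's TPM (n = 4) in transcripts with a complete frame and hydrophobic window, with a complete frame and no window, with an incomplete frame, and in those not annotated as protein-coding, in the main and the second table. Complete frames without a window are largest in Tnfrsf9, at 43.3% in the main table and 29.3% in the second.

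Among 19 other receptors of the superfamily, 10 were at 1 TPM or more and 4 at 10 TPM or more in every library, and their median was 2.08 ± 0.14 TPM. The highest was Tnfrsf26 at 102 ± 21.4 TPM, close to Fas in the main table. In the M4 counts it stood at 47.0 length-scaled units, against 129 for Fas. Library 1 held 135 TPM of it and the other libraries 90.7 to 92.8 TPM. Tnfrsf13b (TACI, a receptor for BAFF and APRIL best known in B cells) followed at 51.1 ± 8.81 TPM, then Tnfrsf22, a decoy receptor for TRAIL in the mouse, at 16.1 ± 2.75 TPM and Relt at 14.8 ± 4.70 TPM. The M4 counts placed Tnfrsf13b at 17.8 and Tnfrsf22 at 8.38 length-scaled units, both more than 1.5 times lower. Tnfrsf13c and Cd40, receptors known from B cells but not limited to them, stood at 6.74 ± 2.66 and 3.03 ± 1.05 TPM. Tnfrsf13c stood at 3.07 units in the M4 counts. Tnfrsf13b, Tnfrsf13c, Cd40 and the B cell marker sum were each highest in library 1 and lowest in library 3. Relt and Tnfrsf1a were too, so this was not particular to genes known from B cells. In library 4 Tnfrsf13b had 45.1 TPM, near its lowest value of 43.3 TPM, whereas the B cell marker sum was 164 TPM. The part of B cell RNA in these levels was not tested. Edar was listed at 0 in all 4 libraries.

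The ligands of the most abundant receptors were nearly absent from the same cells. Tnfsf18, the ligand of Tnfrsf18, had 0.22, 0.27, 0 and 0 TPM, that is 3, 4, 0 and 0 expected counts. Tnfsf4, the ligand of Tnfrsf4, averaged 0.74 ± 0.20 TPM, and Cd70, the ligand of Cd27, averaged 0.91 ± 1.11 TPM. Library 3, with 2.55 TPM, set most of the Cd70 mean. Tnfsf15, the ligand of Tnfrsf25, averaged 0.53 ± 0.20 TPM. These ligands are best known from antigen-presenting cells.

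The ligands of the other receptors were present. Tnfsf9 averaged 9.55 ± 1.84 TPM, Tnfsf14 13.3 ± 2.46 TPM, Fasl 16.6 ± 6.19 TPM and Tnf 17.9 ± 2.60 TPM. Each lay below its receptors' means, and Tnf in library 3, at 21.8 TPM, was level with Tnfrsf1a there at 21.6 TPM. Lta, whose product also binds the TNF receptors, averaged 79.5 ± 10.3 TPM and exceeded Tnfrsf1a in every library. The 4 highest of 18 ligands were Ltb at 213 ± 71.3 TPM, Tnfsf8 (CD30 ligand) at 87.2 ± 11.5 TPM, Lta, and Cd40lg at 55.9 ± 4.99 TPM. Of the 18, 11 were at 1 TPM or more in every library, and Tnfsf12 was listed at 0 in all 4. In the M4 counts Ltb stood at 350, Tnfsf8 at 43.8 and Tnfsf9 at 16.1 length-scaled units, each more than 1.5 times from its TPM. There Tnfsf4 stood at 0.46 and Cd70 at 1.58 units, still far below their receptors.

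**Figure D5:**
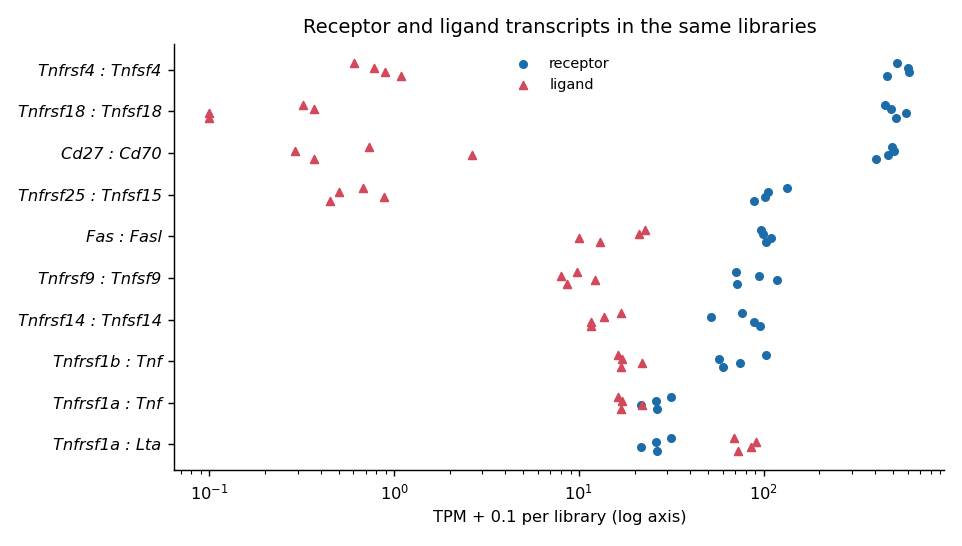
TPM + 0.1 (log axis) of each receptor (blue points) and a ligand of it (red triangles) in the 4 libraries. Tnfsf4, Tnfsf18, Cd70 and Tnfsf15 lie at or below 2.55 TPM under receptors of 88.1 TPM or more, whereas Lta lies above Tnfrsf1a in every library.

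All 18 genes of proximal signalling were at 1 TPM or more in every library, and 13 were at 10 TPM or more. Their median was 50.6 ± 8.61 TPM. The highest were Traf1, an adaptor induced by NF-kappaB, at 239 ± 29.3 TPM, and Tank, a TRAF-binding adaptor, at 219 ± 35.8 TPM. Cflar, which encodes the caspase-8 inhibitor cFLIP, followed at 148 ± 14.8 TPM, and Casp8, the initiator caspase of death receptors, at 142 ± 6.53 TPM. In the M4 counts they were far apart, with Cflar at 37.5 and Casp8 at 209 length-scaled units, whereas the second table had 174 ± 11.9 TPM of Cflar and 133 ± 6.59 TPM of Casp8 over coding genes. Adam10 and Adam17, metalloproteases that release ectodomains of TNF family proteins, averaged 54.9 ± 12.0 and 47.2 ± 10.7 TPM, and both were lowest in library 2. The M4 value of Adam10 was 33.6 units.

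With only 4 technical libraries, likeness of pattern was given as a distance and not as a correlation. Among 6187 protein-coding genes at 10 TPM or more in every library, the centred log2 profiles nearest to that of Tnfrsf4 were those of Alkbh1 (distance 0.014), Ndufaf7 (0.028) and Timm22 (0.036). Tnfrsf18, its neighbour on the chromosome, lay at a distance of 0.36 and rank 1467, and Cd27 lay nearer at 0.21.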

How the data were processed

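Per the notes deposited beside the files, the authors' main expected counts and TPM, with each transcript as a percent of its gene, came from an alignment to GENCODE M21 transcripts on mm10. A second deposited transcript table gave estimated counts and TPM from the reads and an index, and the deposited whole-number counts came from a genome alignment with GENCODE M4. The sources used here name neither programs nor strand settings. Rows outside annotated genes held 0.133 to 0.504% of expected counts and were left out.

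Means and SDs were taken over the 4 libraries (6648385 to 9341328 expected counts, where 3 counts equal 0.32 to 0.45 CPM). Expected counts were rounded and tested between libraries with edgeR 4.0.16 (glmFit and glmLRT, dispersion 0, TMM library sizes, Benjamini-Hochberg adjustment) over genes averaging 10 counts or more. A quasi-likelihood test needs replicates within groups, which 1 group of 4 libraries tested against each other does not leave. The procedure was checked on simulated Poisson counts, the model that the test assumes. That check does not cover error of read assignment or spread beyond counting error. DESeq2 1.42.0 gave size factors for an alternative. M4 counts were divided by main effective lengths (at least 50 bp) and scaled to the main TPM sum over 22195 matched genes. Hydropathy was computed from annotated coding sequence. The genes and lists were chosen with earlier results of these data known. All 9 receptors are named with values. Of each other list, the 4 highest genes, the receptors' ligands and genes at 0 in all libraries are named by rule, and Tnfrsf8, Ltbr, Tnfrsf13c and Cd40 were added after their values were seen. 1 marker gene is not reported here. The columns of other samples numbered 0.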

Additional observations from a re-analysis of the deposited data

Results flagged for a closer look

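Of 48 values examined over the 4 libraries, 3 had 1 library far from the other libraries by Dixon's criterion, and chance alone sets apart about 1 value in 20. Tnfrsf1a-201 held 85.9% of the Tnfrsf1a TPM in library 4 and 94.7 to 96.4% in the others. That gap rests on few counts. In library 4 Tnfrsf1a-205 had 8.21 and Tnfrsf1a-203 had 1.39 expected counts, against 242 for Tnfrsf1a-201. Tnf stood at 21.8 TPM in library 3 and at 16.2 to 17.0 TPM in the others. Tnfrsf26 stood at 134.53 TPM in library 1, the library with 965 TPM of erythroid genes, and at 90.7 to 92.8 TPM in the others. The part of erythroid RNA in the Tnfrsf26 level was not tested.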

How the results depend on the processing

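Of 190 alternative values for 26 results, 50 moved by more than 1 SD and 0 reversed a called direction. The other 140 stayed within 1 SD (within 1.5 times for the count of receptors called), among them all 104 that left out a library. For all results but the count of receptors called, leaving out 1 of 4 libraries cannot move the mean by 1 SD. Those outcomes were fixed in advance and say nothing about stability. Only the log2 ratios of receptor pairs could be labelled as reversed, and leaving out a library cannot flip a called ratio. Tnfrsf4 over Tnfrsf18 changed sign without division by length, but it was not called and so could not count. The change of leading transcript in Tnfrsf18 was labelled as a move. The median receptor stood at 134 TPM-like units in M4 counts, 113 TPM in the second table and 121 TPM in the main table over coding genes. In M4 counts the log2 ratios were 0.37 for Tnfrsf1b over Tnfrsf1a, 3.62 for Tnfrsf18 over Tnfrsf9, 2.35 for Tnfrsf25 over Tnfrsf1a and -1.79 for Tnfrsf14 over Cd27. Without division by length they were 2.39 for Tnfrsf1b over Tnfrsf1a, -0.22 for Tnfrsf4 over Tnfrsf18, 1.82 for Tnfrsf18 over Tnfrsf9, 1.26 for Fas over Tnfrsf1a and 1.36 for Tnfrsf25 over Tnfrsf1a. In the second table the leading shares were 33.8% for Tnfrsf18-202, 74.4% for Tnfrsf4-201, 53.5% for Tnfrsf9-205, 87.9% for Tnfrsf1a-201, 34.1% for Tnfrsf25-202, 72.7% for Tnfrsf14-205, 60.3% for Cd27-201 and 57.5% for Fas-201. By expected counts they were 81.7% for Tnfrsf18-202, 89.6% for Tnfrsf4-201, 52.5% for Tnfrsf25-202, 68.1% for Tnfrsf14-205, 83.1% for Cd27-201 and 87.6% for Fas-201. Some moves follow by construction. The main values over coding genes are the same TPM over a smaller total. Values without division by length weigh long genes more, and shares by counts weigh long transcripts more. The second table's median of 113 TPM, over coding genes, was set against 101 TPM over all genes, not against the like-scaled 121 TPM. The cause of the other moves was not tested. The number of receptors called was 8 to 9 when a library was left out and 8 in the second table. No paired analysis was possible because there is 1 group. Intervals of assignment beyond the tables' posterior errors and spread between mice are outside these data.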
